A study of Gasterosteus aculeatus with 29 samples.

Results

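Among 17730 genes in the RNA of stickleback brains (Gasterosteus aculeatus), 75 were modestly higher in females than in males by less than 2-fold. They were chosen on the deposited log2 CPM values, a scale of reads relative to library size. A member had a mean log2 CPM of at least 1, a female mean minus male mean of at least 0.35 and under 0.8, and a pooled within-sex SD of at most 0.25. The rule used 27 of 29 libraries, from 16 females and 11 males. The sex difference and its spread were thus used to choose the members, and their values by sex are a description that supports nothing further.

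The study crossed a father's experience of predation risk with his offspring's own. Fathers were exposed to risk while they tended their young (5 fathers) or were not (5 fathers), and their offspring were or were not exposed as juveniles. Each library came from the brain of 1 fish. The 27 libraries comprised 4 fish with neither exposure (2 females and 2 males), 8 with paternal exposure only (5 females, 3 males), 9 with personal exposure only (5 females, 4 males) and 6 with both (4 females, 2 males, both males of father M15). Siblings occur within and across groups, so p-values also rest on fish that share a father.

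Both left-out libraries are labelled male. Library both replicate 7 had female levels of the genes that differ by sex, and library neither replicate 3 differed widely from all others. Its genes deviated from their medians over libraries with an interquartile range of 1.51, where the 27 libraries had 0.212 to 0.419. Depth in those 27 was 2244609 to 55155451 reads (median 8121703). No gene symbols were used, since 0 of 17730 identifiers matched the reference table. The members are therefore given by identifier and without a function, and the brain label was not checked against marker genes.

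In this species males carry an X and a Y chromosome and females a pair of X chromosomes. Much of the Y has lost genes, so a male has a single copy of many genes of which a female has a pair. Dosage balance is the evening out of such differences in RNA level, and it can be complete, partial or absent for a given gene. Chromosomes were not analysed here, so whether a member lies on the X is not known from these data. In whole brains, fewer cells of a type and less RNA per cell cannot be told apart.

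The members formed the sparse stretch between a main peak of genes with little or no sex difference and a smaller peak close to 2-fold. Of 8519 genes that met the limits on mean and SD (called steady here), 8254 differed by less than 0.35 in either direction, 75 were members and 176 were higher in females by 0.8 or more. The median difference of those 176 was 0.99 log2 CPM (quartiles 0.91 and 1.08). Between 0.3 and 0.35 there were 19 steady genes, and the count then ran at 3 to 12 per step of 0.05 across the band. The sparsest step was 0.65 to 0.7, with 3 genes. From 0.7 the counts rose again, to 11, 12, 13, 26 and 31 in successive steps up to 0.95. The members thus held 49 genes below 0.65 and 26 from 0.65 up.

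**Figure D1:**
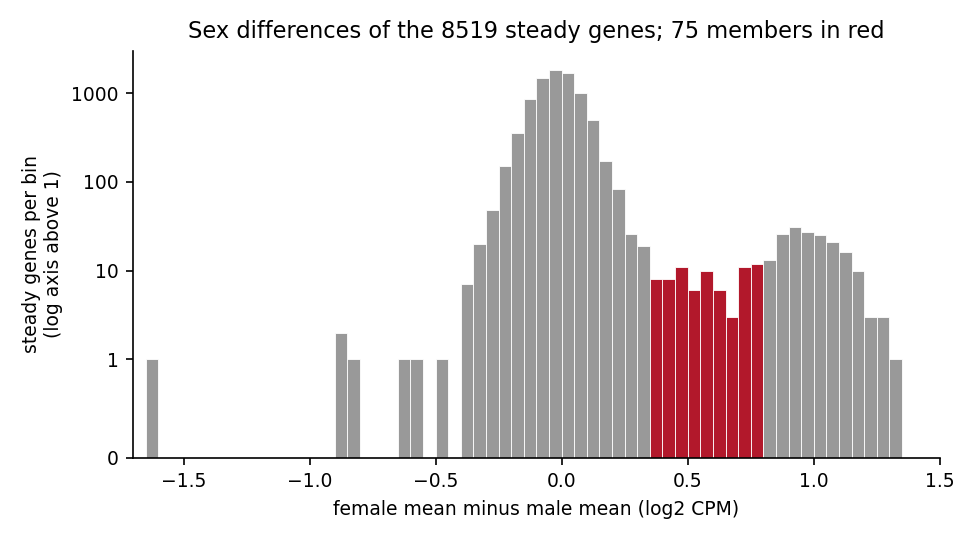
Counts of 8519 steady genes by female mean minus male mean (log2 CPM, bins of 0.05, log count axis above 1), with the 75 members in red. The members fill the sparse stretch between the main peak and the peak of 176 genes at 0.8 or more, and the male-higher side holds 10 genes at the same distance.

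Equal distances on the male side were much emptier. Only 10 steady genes were higher in males by 0.35 to 0.8, of which 8 lay under 0.5, 2 from 0.5 to 0.65 and 0 from 0.65. On the female side the same steps held 27, 22 and 26 members. This imbalance was not seen among genes above the same minimum mean whose within-sex SD exceeded 0.25. There, 331 genes were higher in females by 0.35 to 0.8 and 323 were higher in males.

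The limits of the band do not mark gaps. The nearest steady genes under the lower limit differed by 0.346 and 0.348, and the lowest members by 0.354 and 0.369. At the upper limit the highest members differed by 0.796 and 0.799, and the next genes by 0.801 and 0.817. On the limit of the SD, the last member had 0.249 and the next gene in the band 0.251.

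The female-to-male fold of the members ranged from 1.28 to 1.74, with a median of 1.49 and quartiles of 1.38 and 1.66. Their mean level ranged from 1.88 to 8.69 log2 CPM (median 4.65), close to the median of 4.47 over all steady genes. The 176 genes of 0.8 or more had a lower median, of 4.12. Pooled within-sex SDs ran from 0.056 to 0.249 (median 0.173), where all steady genes had a median of 0.175. The median SD was 0.172 among females and 0.166 among males, and the male SD was the larger in 33 of 75 members.

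Differences within the band showed little relation to abundance. Over the 75 members Pearson's r between mean level and sex difference was 0.073 and Spearman's rho 0.022, across genes that share all libraries. Members made up 0.782% of steady genes from 1 to 3 log2 CPM (8 members) and 0.586% from 3 to 4 (12 members). They were 1.13% from 4 to 5 (28 members), 0.969% from 5 to 6 (17 members) and 0.818% from 6 up (10 members). The median difference per class lay between 0.54 and 0.74, without an order by abundance. The thinnest member value rested on 15 reads, and the median member had 399 reads in its median library. Counting error is largest in the 8 members under 3 log2 CPM.

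The sexes separated fully in 38 members, where every female lay above every male, and overlapped in 37. Over all steady genes the same complete separation occurred in 2.42%, and over the 176 genes of 0.8 or more in 167. Of the 2025 member values in the 27 libraries, 1905 (94.1%) lay nearer the mean of their own sex. In 23 members all 27 libraries did. Both counts largely follow from the rule, which used these values and limits their spread.

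The widest gap belonged to ENSGACG00000009454. Its female levels ran from 7.43 to 7.66 log2 CPM (median 7.57) and its male levels from 6.71 to 6.81 (median 6.77). The lowest female thus stood 0.62 above the highest male, and the means were 7.57 ± 0.065 (SD, n = 16) and 6.77 ± 0.038 (SD, n = 11). With a pooled SD of 0.056, this was the steadiest member, at 698 to 22646 reads per library. In the fish with neither exposure, neither replicates 1 and 4, the females, had 7.65 and 7.56, and neither replicates 2 and 5, the males, had 6.71 each.

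ENSGACG00000007738 had the second widest gap, at a much lower level. Its females ran from 4.42 to 4.85 log2 CPM (median 4.67) and its males from 3.67 to 3.99 (median 3.91), which left 0.43 between the sexes. The means were 4.66 ± 0.13 (SD, n = 16) and 3.87 ± 0.12 (SD, n = 11), a difference of 0.79. Females with both exposures had 4.61 to 4.85 (n = 4), above the 4.49 and 4.50 of females with neither. They overlapped with the 4.42 to 4.81 (n = 5) of those with personal exposure only. Females with paternal exposure only, at 4.56 to 4.67 (n = 5), also lay above those with neither and overlapped with those with both.

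The most abundant member, ENSGACG00000004968, had 8.54 to 9.11 log2 CPM in females (median 8.87) and 8.26 to 8.62 in males (median 8.43). Its sexes overlapped by 0.08, with means of 8.85 ± 0.15 (SD, n = 16) and 8.44 ± 0.12 (SD, n = 11) and a difference of 0.41. The sexes lay closest in fish with both exposures, where females had 8.63 to 8.84 (n = 4) and males 8.57 and 8.60. ENSGACG00000006990, next in abundance, had 7.96 to 8.75 in females (median 8.33) and 7.33 to 7.95 in males (median 7.65). Every female was above every male, but by 0.006 only, and the means were 8.36 ± 0.26 (SD, n = 16) and 7.62 ± 0.17 (SD, n = 11).

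**Figure D2:**
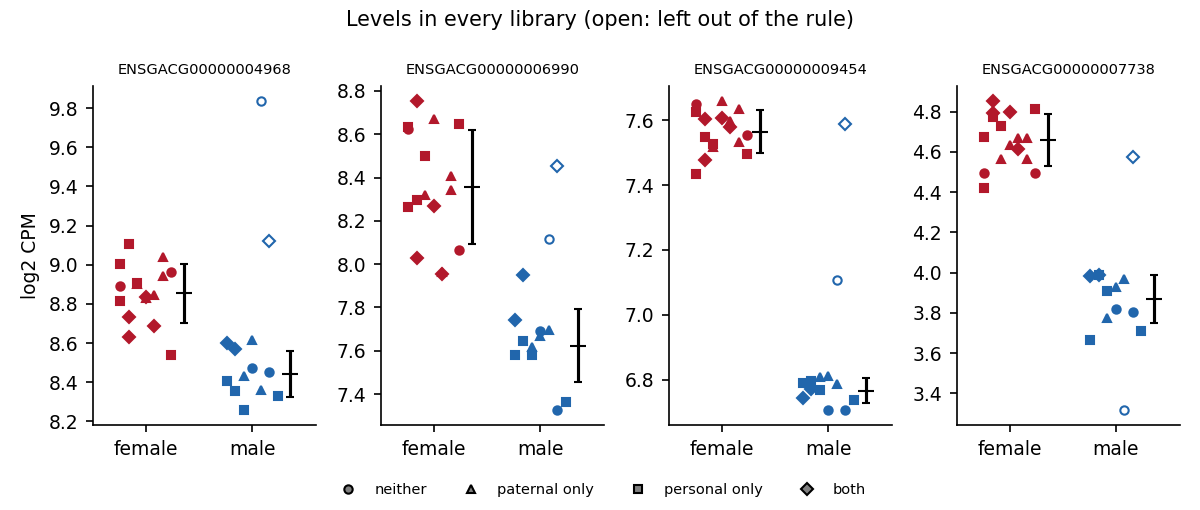
Log2 CPM in every library for the 2 most abundant members (left) and the 2 with the widest gap between the sexes (right), with mean and SD of the 27 libraries as bars, symbols by exposure group and left-out libraries open. The y axes do not start at 0. ENSGACG00000009454 shows females at 7.43 to 7.66 and males at 6.71 to 6.81.

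The number within the gene identifier, which the rule did not use, spanned a narrower range in the members than in all steady genes. The 176 genes of 0.8 or more had numbers from 3152 to 14093, a range that holds 53.5% of all steady genes. Of the members, 74 of 75 fell within that range, and the remaining one had the number 3130. By size of the difference, the range held 26 of 27 members under 0.5, 22 of 22 from 0.5 to 0.65 and 26 of 26 from 0.65. It held 64.8% of 128 steady genes with a female excess of 0.2 to 0.35, and 56.2% of 219 genes with the same male excess. Of the few steady genes with a larger male excess, it held 8 of 10 at 0.35 to 0.8 and 4 of 4 at 0.8 or more. Among the variable genes with a female excess of 0.35 to 0.8, the share was 59.5% of 331. The sources used here do not say whether these numbers follow position on a chromosome.

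Along that range the make-up of the female-higher steady genes changed. From 3000 to 5999 members were 17 and genes of 0.8 or more were 64, so that members were 21.0% of the female-higher genes. The share was 25.3% from 6000 to 8999 (19 members, 56 others) and 35.5% from 9000 to 11999 (22 members, 40 others). It reached 51.5% from 12000 to 14999, with 17 members and 16 others. The count of others fell, while that of members stayed at 17 to 22 among 1229 to 1262 steady genes per step. The last step runs past the highest number of members (14090) and of the others (14093). Its counts thus come from part of the step, and the density of members within the occupied part was not compared. The median difference of all female-higher genes was 0.94, 0.97, 0.88 and 0.74 in the same order. Members did not sit in adjacent rows. In 0 of 75 was the row directly above or below a female-higher steady gene, against 5.29% of steady genes in the range, and within 5 rows the shares were 26.7% and 24.3%.

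**Figure D3:**
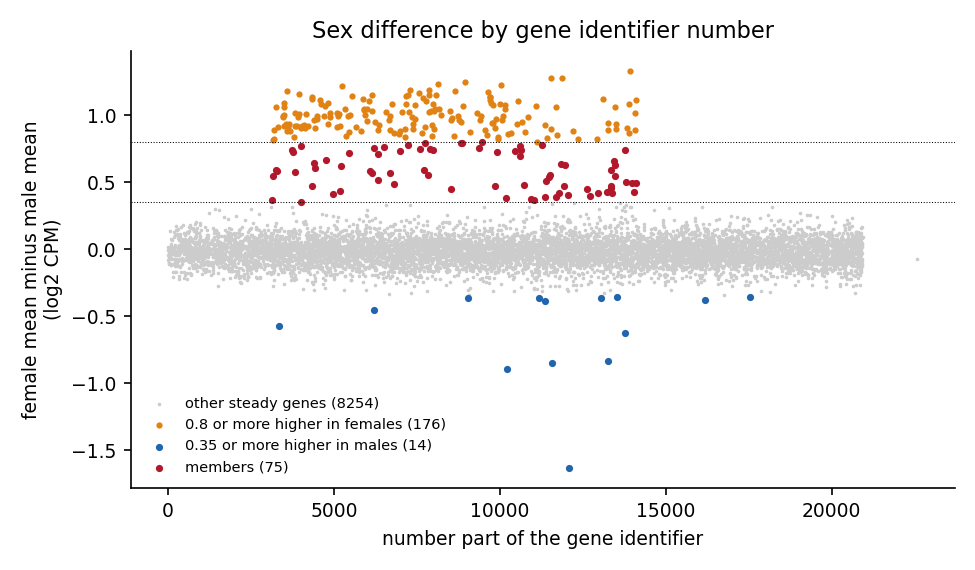
Female mean minus male mean (log2 CPM) of 8519 steady genes against the number part of the gene identifier, with members in red between the dotted limits of 0.35 and 0.8. Members and the 176 genes above them occupy the numbers from 3130 to 14093. The members become a larger share of them towards the high end, where the genes of 0.8 or more are fewer.

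The members kept their direction in every exposure group, with 1 exception. The groups are parts of the 27 libraries that the rule used, so this largely follows from the choice of members. The female minus male difference had a median over members of 0.64 in fish with neither exposure, 0.51 with paternal exposure only, 0.59 with personal exposure only and 0.61 with both. Over all steady genes the medians were 0.005, -0.047, -0.010 and 0.014. All 75 members were higher in females in the paternal only, personal only and both groups, and 74 in the neither group, where the exception, with -0.085, rests on 2 females and 2 males. Of all steady genes, 37.7%, 46.6%, 52.7% and 51.4% were higher in females in these groups, in the same order.

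Families and lanes, also parts of the 27 libraries, gave similar values, which likewise largely follow from the rule. In the 7 families with both sexes among the 27 libraries, the median difference ran from 0.49 (father M11) to 0.59 (father M8), and 70 to 75 members were higher in the daughters. The direction was the same in all 7 families for 68 members. Within the 5 sequencing lanes the medians were 0.57 to 0.66, and 73 members were higher in females in every lane. Of all steady genes, 38.7% to 50.8% were higher in females within a family and 43.4% to 55.6% within a lane.

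A position was computed for each member and library, from 0 at the male mean to 1 at the female mean. The median position over members was 0.901 to 1.10 in the 16 females and -0.155 to 0.089 in the 11 males. The rule and the scaling to the sex means of these same libraries set this separation, so it is a description only. Among females the mean of these medians was 1.01 (n = 2) with neither exposure, 0.969 ± 0.046 (SD, n = 5) with paternal only, 1.01 ± 0.052 (n = 5) with personal only and 1.02 ± 0.054 (n = 4) with both. Among males it was -0.043 (n = 2), 0.046 ± 0.037 (n = 3), 0.00069 ± 0.032 (n = 4) and -0.086 (n = 2) in the same order. The females of all groups overlapped. The paternal only males, at 0.024 to 0.089, lay above the neither males, at -0.074 and -0.012, and above the both males, at -0.155 and -0.017. They overlapped with the personal only males, at -0.035 to 0.039. Among these males, paternal only replicates 7 and 8 are of father M11 and those with both exposures are of father M15. Family and exposure therefore cannot be told apart here. Over all steady genes, too, the median female minus male difference was lowest in the paternal only group, at -0.047. No test was run on these positions.

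**Figure D4:**
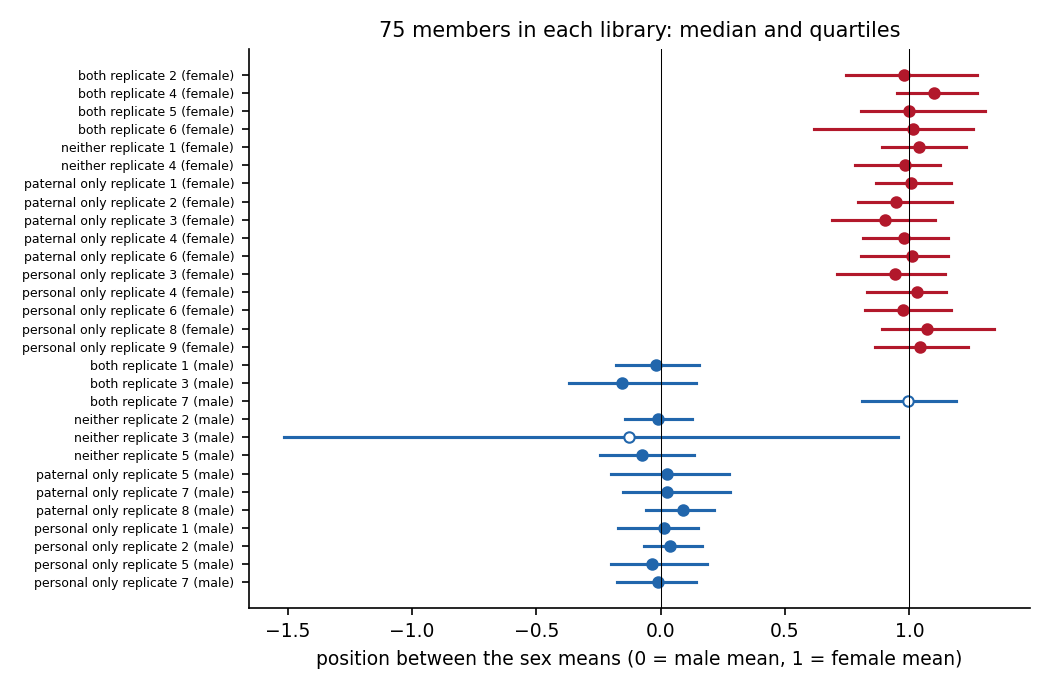
Median (point) and quartiles (line) of the 75 members' positions in each library, where 0 is the male mean and 1 the female mean, with open points for the libraries left out of the rule. Female medians lie at 0.901 to 1.10 and male medians at -0.155 to 0.089, while both replicate 7, labelled male, lies at 0.995.

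The values of the left-out libraries did not enter the means and SDs of the rule. In both replicate 7 (19835515 reads), labelled male, 70 of 75 members lay nearer the female mean than the male mean. Over all steady genes this share was 49.3%, and over those that differ by less than 0.35 it was 47.8%. The median position was 0.995 with quartiles of 0.811 and 1.19, inside the range of the 16 females, and at most 8 members lay nearer the female mean in any of the 11 males. The other 5 members had positions from -0.316 to 0.473. ENSGACG00000009454 had 7.59 log2 CPM there, within its female range, and ENSGACG00000007738 had 4.58. This library was left out with its female levels of sex-differing genes known, and those genes may have included members. The count of 70 is therefore a description and not independent of that choice.

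In neither replicate 3 (4422208 reads) the members were scattered. The number nearer the female mean was 30 of 75, where the share was 48.5% over all steady genes and 48.7% over those under 0.35. The median position was -0.128, near the males, but the quartiles were -1.51 and 0.953, and the SD over members was 1.78 against 0.179 to 0.532 in the 27 libraries. ENSGACG00000009454 had 7.11 log2 CPM in it, between the sexes, and ENSGACG00000004968 had 9.83, above all fish of either sex.

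The effects of exposure were tested next, with sex in the fit. The rule does not fix their direction, but its SD limit restricts how large they can be. In the limma-trend fit of 16593 genes, which gives sex as well, all 75 members were higher in females at an adjusted p of 0.05, where 3.09% of all genes were. That count follows from the rule, and was 70 with all 29 libraries.

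Paternal exposure, averaged over personal exposure, changed 0 members at an adjusted p of 0.05 (limma, 0.0121% of all genes). At an unadjusted p under 0.05 there were 6 members, 3 higher and 3 lower, against 10.3% of all genes (5.73% higher and 4.62% lower). The estimates ran from -0.19 to 0.18 with a median of -0.007, next to 0.001 over all genes, and 34 members were above 0. The smallest p on the higher side belonged to ENSGACG00000006326. With neither exposure its females had 5.99 and 5.91 log2 CPM and its males 5.25 and 5.10. Its levels were 5.20 to 6.21 (median 6.02, n = 8) with paternal only, 5.10 to 6.22 (median 5.87, n = 9) with personal only and 5.45 to 6.23 (median 6.13, n = 6) with both. These ranges pool the sexes, whose difference the rule set, so their overlap says little about exposure. Females had 5.99 to 6.21 (n = 5) with paternal only and 5.87 to 6.22 (n = 5) with personal only. With both they had 6.12 to 6.23 (n = 4). Males had 5.20 to 5.71 (n = 3), 5.10 to 5.57 (n = 4), and 5.45 and 5.55 in the same order. In each sex, fish with both exposures lay above those with neither, and the single exposures overlapped with neither. The estimate was 0.18 ± 0.065 (SE; limma adjusted p = 0.384). ENSGACG00000007844 led the lower side with -0.15 ± 0.058 (SE; limma adjusted p = 0.399). Its females had 5.56 and 5.68 log2 CPM with neither exposure and 5.33 to 5.56 (n = 5) with paternal only. They had 5.47 to 5.86 (n = 5) with personal only and 5.30 to 5.68 (n = 4) with both, and these 4 groups overlapped. Its males had 5.00 and 5.08 with neither, 4.99 to 5.02 (n = 3) with paternal only and 4.99 to 5.07 (n = 4) with personal only. The males with both exposures, both of father M15, had 4.74 and 4.92, below all other males. Limma-voom on reads recovered from the table also called 0 members and had 6 at an unadjusted p under 0.05.

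Personal exposure, averaged over paternal exposure, likewise changed 0 members (limma, 0% of all genes), with 2 at an unadjusted p under 0.05 against 4.72% of all genes. Limma-voom called 0 members, with 3 at an unadjusted p under 0.05. Estimates ran from -0.16 to 0.19 with a median of 0.001, next to 0.002 over all genes. ENSGACG00000003279 had the smallest p, with 0.19 ± 0.073 (SE; limma adjusted p = 0.943). Its females had 3.27 and 3.30 log2 CPM with neither exposure and 3.37 to 3.91 (median 3.59, n = 5) with personal only. Its males had 2.94 and 2.74 with neither and 2.77 to 3.20 (median 3.00, n = 4) with personal only. In offspring of exposed fathers, females had 3.11 to 3.82 (n = 5) without and 3.57 to 3.77 (n = 4) with personal exposure, and males had 2.78 to 3.05 (n = 3) without and 2.91 and 3.31 with it. ENSGACG00000009927 had -0.16 ± 0.080 (SE; limma adjusted p = 0.943), with overlapping females in all groups (2.93 to 3.74, n = 16). Its males had 2.92 and 2.94 with neither exposure, 2.75 to 2.99 (n = 3) with paternal only, 2.45 to 3.15 (n = 4) with personal only and 2.55 each with both.

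The interaction of the cues, the question of the series, asks whether the effects of father's and own exposure add on the log2 scale. It passed in 0 members (limma, 0% of all genes), and 5 had an unadjusted p under 0.05 against 3.72% of all genes. Limma-voom called 0, with 3 at an unadjusted p under 0.05. The median was -0.012, next to 0.003 over all genes, and the estimates ran from -0.32 to 0.36. ENSGACG00000013352 had an interaction of 0.35 ± 0.11 (SE; limma adjusted p = 0.999). Its group means were 5.28 ± 0.23 log2 CPM (SD, n = 4) with neither, 5.13 ± 0.31 (n = 8) with paternal only, 5.14 ± 0.27 (n = 9) with personal only and 5.32 ± 0.27 (n = 6) with both. ENSGACG00000005176 had 3.23 ± 0.36, 3.47 ± 0.26, 3.47 ± 0.22 and 3.39 ± 0.32 in these groups and an interaction of -0.32 ± 0.13 (SE; limma adjusted p = 0.999). Each of these means and SDs pools the sexes, whose shares differ between groups. By sex, in the same order, ENSGACG00000013352 had means of 5.48, 5.33, 5.35 and 5.45 in females and 5.08, 4.80, 4.88 and 5.05 in males. ENSGACG00000005176 had 3.54, 3.62, 3.63 and 3.54 in females and 2.93, 3.22, 3.26 and 3.07 in males.

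**Figure D5:**
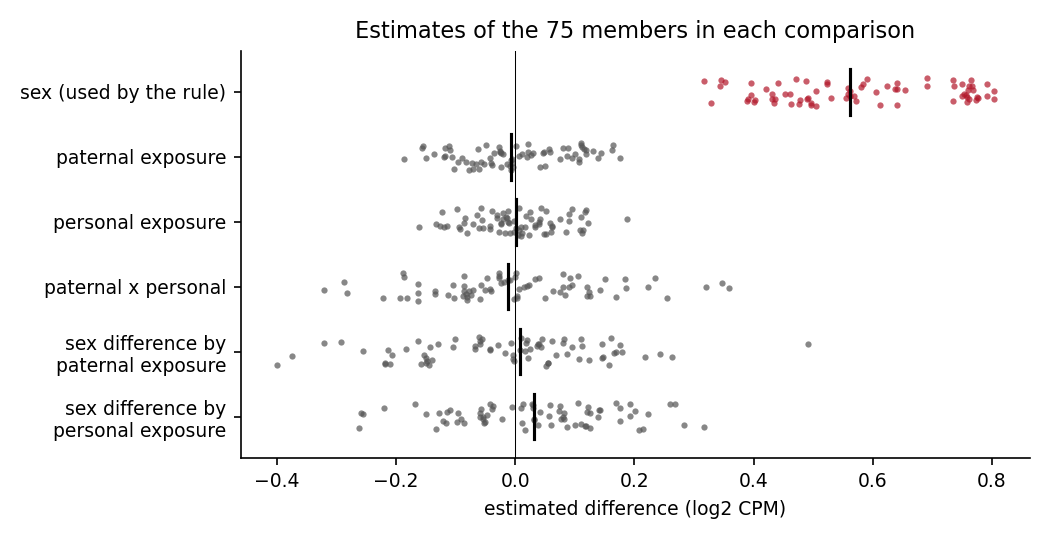
Estimated differences (log2 CPM) of the 75 members in the limma fits of 27 libraries, with a bar at the median of each comparison. Estimates by sex, fixed by the rule, lie at 0.32 to 0.80, and those of paternal and personal exposure lie between -0.19 and 0.19. Those of the interaction lie at -0.32 to 0.36. Changes of the sex difference lie at -0.40 to 0.49 by paternal exposure and at -0.26 to 0.32 by personal exposure.

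A separate fit, with a mean for each sex in each group, tested whether the sex difference itself changed with exposure. It differed by paternal exposure in 0 members (limma, 0% of all genes), with 2 at an unadjusted p under 0.05 against 4.97% of all genes. It differed by personal exposure in 0 members (0% of all genes), with 2 at an unadjusted p under 0.05 against 2.6%. Limma-voom called 0 in each and had 2 at an unadjusted p under 0.05 in each. Medians were 0.007 and 0.032, next to -0.007 and -0.001 over all genes. With all 29 libraries, sexes as labelled, both medians turned negative, to -0.133 and -0.099, and 0 members were called.

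Single members reached larger estimates with wide errors. For ENSGACG00000003999, the member closest to the lower limit, the sex difference in offspring of exposed fathers exceeded that of unexposed fathers by 0.49 ± 0.19 (SE; limma adjusted p = 0.936). Its females and males with neither exposure overlapped, at 2.16 and 2.30 against 2.14 and 2.48 log2 CPM. With personal exposure only the females had 2.19 to 2.63 (n = 5) and the males 1.74 to 2.25 (n = 4). With paternal exposure only the females had 2.20 to 2.69 (n = 5) and the males 1.55 to 2.24 (n = 3), and with both the females had 2.40 to 2.70 (n = 4) and the males 1.79 and 2.05. For ENSGACG00000012733 the sex difference was smaller by 0.40 in offspring of exposed fathers, an estimate of -0.40 ± 0.13 (SE; limma adjusted p = 0.936). Its males had 4.27 and 4.06 with neither exposure, 4.38 to 4.52 (n = 4) with personal only, 4.25 to 4.83 (n = 3) with paternal only and 4.70 and 4.83 with both. Its females had 4.87 and 5.11, 4.65 to 5.09 (n = 5), 4.66 to 4.90 (n = 5) and 4.86 to 5.06 (n = 4) in the same order.

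By personal exposure the smallest p belonged to ENSGACG00000004004, with an estimate of 0.28 ± 0.096 (SE; limma adjusted p = 0.999) for the change of the sex difference. The female and male means were 8.39 and 7.64 log2 CPM with neither exposure and 8.26 and 7.53 with personal only, so the difference was no larger with own exposure in offspring of unexposed fathers. They were 8.21 and 7.66 with paternal only and 8.46 and 7.29 with both. Its males with both exposures, both of father M15, had 7.26 and 7.32, below all other males at 7.49 to 7.76. With both replicate 7 included as the male of its label, the estimate was 0.007. ENSGACG00000007588 led the other side with -0.26 ± 0.14 (SE; limma adjusted p = 0.999). Its females had 3.17 and 3.11 with neither exposure, 2.75 to 3.05 (n = 5) with personal only, 2.70 to 3.08 (n = 5) with paternal only and 2.70 to 3.03 (n = 4) with both. Its males had 2.25 and 2.00, 2.06 to 2.25 (n = 4), 2.03 to 2.24 (n = 3), and 2.35 and 2.23 in the same order. With 2 males in the neither group and 2 in the both group, these differences were estimated with a median SE of 0.14 and 0.15, and estimates as large as 0.49 did not pass.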

How the data were processed

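Brain RNA of single fish was poly-A enriched and sequenced single-end, per the labels' protocols. The authors deposited log2 CPM values of 17730 genes in 29 libraries. CASAVA 1.8.2, TopHat2 2.0.8 and HTSeq 0.6.1, with edgeR, are listed in the submitters' processing notes, without roles. The build listed there, NCBIM37, is a mouse assembly, so genome and annotation are unknown and neither coordinates nor sequences are printed. Strand use in counting is unknown too, which leaves overlapping genes uncertain. How reads that match several paralogs were counted is also unknown.

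The lowest value, -6.77, was shared by all 29 libraries. With a prior of 0.25 reads, 100% of values came back as whole reads (tolerance 0.01), which gave the depths. Reads are not independent molecules, so they describe counting error only.

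Groups, fathers and sex came from the labels, and replicates were numbered in deposition order. In R 4.3.3, limma 3.58.1 with a mean-variance trend (limma-trend) and statmod 1.5.0 was fitted to genes whose log2 CPM exceeded 0 in 5 or more of 27 libraries. Terms were group and sex, or a mean per group and sex, with father as a random block (correlation 0.168). P-values were adjusted over 16593 genes (Benjamini-Hochberg). The fit was tested on simulated data, drawn without an effect of father, unlike the real libraries. It recovered 50.7% of simulated paternal changes of 1.25-fold, 88.1% of 1.5-fold and 92.4% of 2-fold. Of 159 calls in the simulation, 5 were false. Paternal exposure varies only between fathers, so the recovered shares are likely too high for the real libraries. The count of false calls, too, holds only for data without an effect of father.

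Members and lists were chosen with earlier results of these data known. Named by sex were the 2 most abundant members and the 2 with the widest gap. Elsewhere the member with the smallest p on each side was named, since none passed. Lists by symbol could not be used. Alternatives varied the limits, libraries, father block, lane, filter, scaling, prior and test. The most similar libraries, neither replicate 5 and personal only replicate 5, had 1.85 times the variance that sampling of reads gives. The next pair had 4.79 times. Both libraries are of males of father M33 in lane 6, from different exposure groups, and each was kept. Whether they come from the same fish was not tested. Without personal only replicate 5, an alternative added after seeing the data, 0 members were called in the exposure and sex-by-exposure comparisons.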

Additional observations from a re-analysis of the deposited data

Results flagged for a closer look

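Among 64 sets of library measures and named genes, 3 values stood far from the other fish of their group. The criterion is one that chance meets in about 1 in 20 sets. The count of 3 cannot be set against that share, since the sets include libraries already known to differ. The values of both replicate 7 and neither replicate 3 repeat what was described above for these left-out libraries. The members' median position in both replicate 7, labelled male, was 0.995, on the scale where the male mean is 0. The other libraries with both exposures deviated from their labelled sex by -0.155 to 0.0997. Neither replicate 3 had an SD of position over members of 1.78, and its group otherwise had 0.240 to 0.387. ENSGACG00000007738 in both replicate 5 lay at -0.046 log2 CPM from the mean of its sex, and the others with both exposures lay 0.115 to 0.191 above theirs.

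The libraries left out of the rule also stood out by the number of members nearer the female mean, which was 70 in both replicate 7 and 30 in neither replicate 3. In the 11 males of the rule the highest number was 8. Depth was 19835515 and 4422208 reads, and its part in these values was not tested.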

How the results depend on the processing

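The number of members was 75 and stayed between 53 and 100 under alternatives of the SD, abundance, lower difference limit, scaling, prior and sex means. It rose to 114 with an upper limit of 0.9 and fell to 39 with all 29 libraries (32 shared with the 75). With all libraries but neither replicate 3, an alternative added after seeing the data, it was 76, of which 63 were shared. Leaving out a neither library gave 72 to 78.

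In 66 alternatives of the exposure and sex-by-exposure comparisons, 0 members passed in each (smallest adjusted p 0.146, without the father block). The named members kept their direction in all of these. For ENSGACG00000004004 the difference by personal exposure ranged from 0.007 (only neither replicate 3 left out) to 0.32. By sex, 70 of 75 members were called with all 29 libraries and 74 with lane added, and ENSGACG00000004968 was among those lost with all 29 (0.28, adjusted p = 0.235). The median over members with all 29 libraries was 0.064 for paternal exposure (-0.007 without the left-out libraries), 0.074 for personal exposure (0.001), 0.049 for the interaction (-0.012), -0.133 for the sex difference by paternal exposure (0.007) and -0.099 by personal exposure (0.032). With only neither replicate 3 left out these were 0.037, 0.044, 0.091, -0.096 and -0.113. Over all genes, limma called 609 by sex and limma-voom 1110, and for paternal exposure 2 and 40. Replicate numbers follow deposition order and pair no fish, so pairing was by father; father as a fixed block gave 0 members for personal exposure. Depth limits members under 3 log2 CPM most.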

Other observations

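Steady genes with higher levels in males were few. Of 14 with a difference of at least 0.35, 4 exceeded 0.8. ENSGACG00000012099, chosen after its values were seen, had a female mean of 5.37 and a male mean of 7.00 log2 CPM. Its difference of -1.63 came with a pooled within-sex SD of 0.079. The range of identifier numbers of the female-higher genes of 0.8 or more held all 4 of these and 8 of the other 10.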
